A study of Mus musculus with 4 samples.

Results

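The genes described here are the 2 corticosteroid receptors, the enzyme that regenerates the active hormone inside cells, and 7 genes that glucocorticoids are known to induce. They are Nr3c1, Nr3c2, Hsd11b1, Fkbp5, Zbtb16, Tsc22d3, Sgk1, Klf9, Hif3a and Errfi1, which makes 10 of the 32285 mouse genes counted in the series. All 10 were found by symbol in the gene list of each library. They were chosen by known function and by their UMI counts per cell class and genotype in all 4 libraries, which were already known. Every value below is therefore a description of these libraries and none is a test.

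The data are single-nucleus RNA profiles (10x Genomics 3′ v3) of hearts from C57BL/6 mice aged 6 months. Nuclei of the whole heart were profiled per the labels, while their library protocol speaks of CD45+ immune cells too. Each of 4 genotypes gave 1 library, made from 3 pooled hearts: WT, a heterozygous Rbm20 mutation (labelled RBM20 het, here Rbm20_het), a homozygous one (RBM20 homo, here Rbm20_homo), and homozygous mice treated by gene editing (RBM20 homo with correction, here the corrected library). Rbm20 encodes a splicing regulator of heart muscle. The labels give neither the allele nor the sex of the mice, nor the time of day or the way the hearts were collected.

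Glucocorticoids enter cells and bind the glucocorticoid receptor (Nr3c1) or the mineralocorticoid receptor (Nr3c2), which wait in the cytoplasm in a complex with HSP90 chaperones. The bound receptor moves to the nucleus and switches on genes such as Fkbp5, Zbtb16 and Tsc22d3. Cardiomyocytes have little of the enzyme that inactivates corticosterone, so in heart muscle both receptors can be occupied by it. Circulating corticosterone follows the time of day and rises with stress.

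Values are CPM, the UMIs of a gene in every 1000000 non-mitochondrial UMIs, summed over the nuclei of 1 class in 1 library. Brackets give 95% intervals, which reflect counting error alone. Each genotype being 1 library, the spread between animals is unknown, no p-value is given and every difference is one between libraries. A gene is called higher or lower, or said to have risen or fallen, when the 95% interval of its ratio lies wholly past 1.5-fold. This needs at least 50 UMIs in the pair of libraries together. Library totals ran from 37180791 UMIs in 9494 barcodes for WT to 52370368 UMIs in 11611 barcodes for Rbm20_homo. Between 26 and 55 cell barcodes were shared by any pair of libraries. The 8 classes used, each named "like" from its markers, were ventricular cardiomyocyte, fibroblast, endothelial, pericyte, macrophage, endocardial, lymphatic endothelial and smooth muscle. Cardiomyocyte-like nuclei numbered 2910 in WT, 2382 for Rbm20_het, 2922 for Rbm20_homo and 3061 for the corrected library, with medians of 4849, 5694, 5909 and 4512 UMIs. Most came from cluster 0 in WT, Rbm20_het and the corrected library and from cluster 3 in Rbm20_homo. Fibroblast-like nuclei likewise came mostly from cluster 1 in the first 3 and from cluster 4 in Rbm20_homo. Rbm20 itself was at 4553 CPM in WT cardiomyocyte-like nuclei, 4578 for Rbm20_het, 3812 for Rbm20_homo and 4710 for the corrected library. The nuclear RNA Malat1 took 14.5%, 15.4%, 24.2% and 15.4% of cardiomyocyte-like UMIs in that order. By CPM the median gene was shifted by -0.20 (log2) between Rbm20_homo and WT, against 0.00 with median-of-ratios scaling. Between the corrected library and Rbm20_homo it was shifted by 0.13 by CPM.

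Fkbp5 and Zbtb16 were higher in Rbm20_homo than in WT in all 8 classes, and Nr3c2 had its lowest value in Rbm20_homo in all 8, called lower than WT in 4 of them. In cardiomyocyte-like nuclei Fkbp5 rose 16.4-fold from WT to Rbm20_homo [14.3 to 18.8]. Zbtb16 was 3.31-fold higher [3.21 to 3.41] and Tsc22d3 1.62-fold [1.53 to 1.71]. Nr3c2 was 2.26-fold lower, and Nr3c1 passed the call in no class and no comparison. In the corrected library Fkbp5, Zbtb16 and Tsc22d3 lay between the levels of WT and Rbm20_homo in 8, 8 and 7 of the 8 classes. Fkbp5 kept 1 order in all 8 classes, with WT lowest, then the corrected library, Rbm20_het and Rbm20_homo.

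Of the 10 genes in cardiomyocyte-like nuclei, 3 were called higher in Rbm20_homo than in WT (Fkbp5, Zbtb16, Tsc22d3) and 1 lower (Nr3c2). Of all 13059 genes tested there, 6.64% were called higher and 11.5% lower. Under median-of-ratios scaling the split over all genes turned from 867 higher and 1501 lower to 1236 higher and 975 lower, and Errfi1 joined the called members. In fibroblast-like nuclei 4 of the 10 genes were called higher and 2 lower, beside 5.46% and 3.78% of all genes. In endothelial-like nuclei 5 of 9 with enough UMIs were called higher and 0 lower, beside 3.17% and 1.96%. In pericyte-like nuclei the counts were 3 and 0 of 8, beside 1.84% and 1.96%. In macrophage-like nuclei they were 4 and 1 of 7, beside 2.01% and 2.73%. In endocardial-like nuclei they were 5 and 1 of 10, beside 2.49% and 1.79%. In lymphatic endothelial-like nuclei they were 4 and 0 of 8, beside 1.38% and 0.711%. In smooth muscle-like nuclei they were 3 and 0 of 6, beside 1.65% and 1.01%. These contrasts chose the genes, so nothing is read from the counts against the shares. Genes under 50 UMIs were not called either way and are named with their values below.

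The other comparisons reuse the same libraries, so their values are set side by side and not counted as repeats. In cardiomyocyte-like nuclei 3 of the 10 genes were called higher and 0 lower in Rbm20_het than in WT (Fkbp5, Zbtb16, Hif3a), beside 1.83% and 1.8% of all genes. In the corrected library against WT the calls were 2 higher (Fkbp5, Zbtb16) and 0 lower, beside 2.08% and 2.62%. Against Rbm20_homo, the corrected library had 1 gene called higher (Nr3c2) and 1 lower (Fkbp5), beside 7.25% and 4.77%. Over all genes, median-of-ratios scaling turned the split of calls higher and lower from 233 and 229 to 277 and 182 for Rbm20_het against WT. It turned 266 and 334 to 328 and 266 for the corrected library against WT, and 940 and 619 to 649 and 816 for the corrected library against Rbm20_homo.

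**Figure D1:**
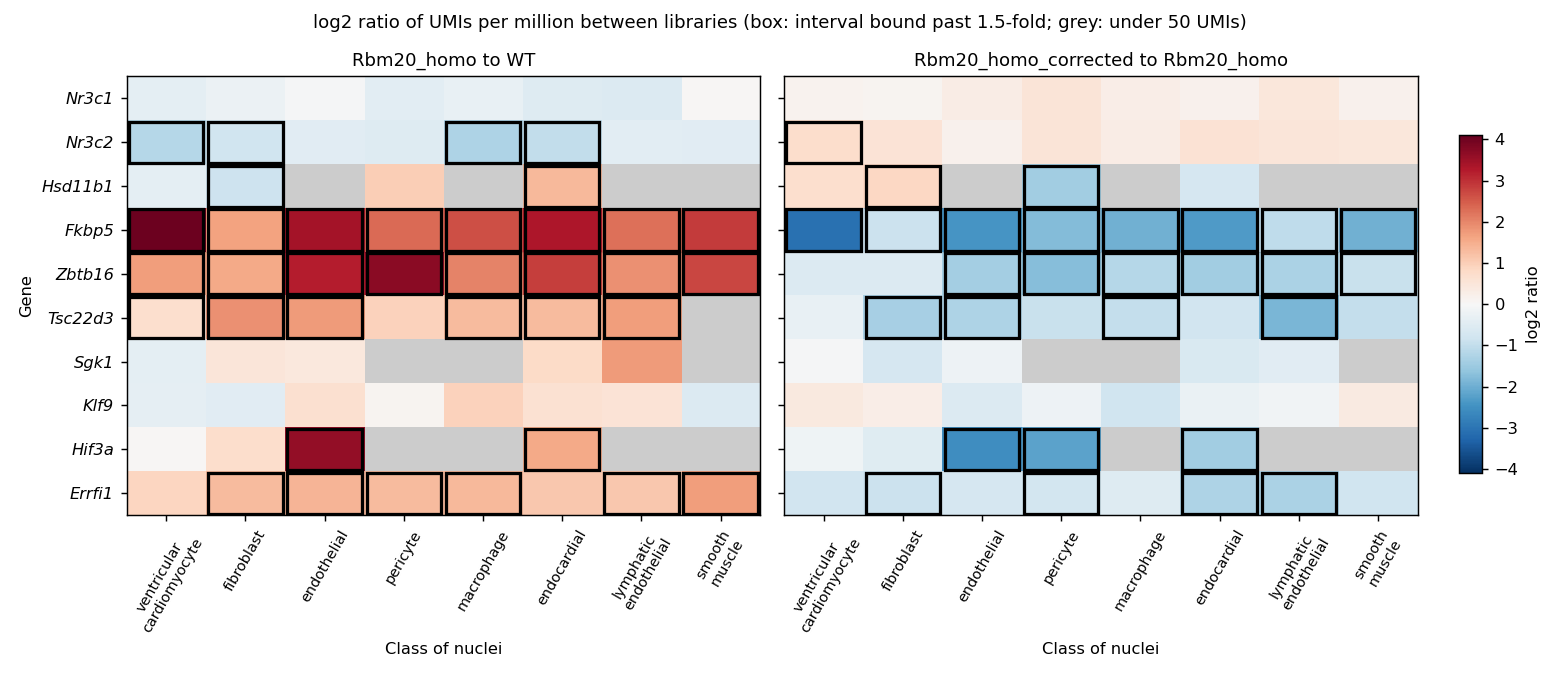
Colour map of log2 ratios of CPM for the 10 genes (rows) in 8 classes of nuclei (columns), for Rbm20_homo to WT on the left and the corrected library to Rbm20_homo on the right. Boxes mark ratios whose 95% interval lies past 1.5-fold and grey marks cells under 50 UMIs. The Fkbp5 row is boxed in all 8 classes on both sides, and the Nr3c1 row in none.

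Nr3c1 encodes the glucocorticoid receptor and lies on chromosome 18 at 39410545 to 39519421 (minus strand, GRCm38, GENCODE vM21). In cardiomyocyte-like nuclei it was at 188 CPM in WT, 174 for Rbm20_het, 142 for Rbm20_homo and 159 for the corrected library. The Rbm20_homo to WT log2 ratio was -0.40, or -0.20 relative to the shift of the median gene. In fibroblast-like nuclei the 4 libraries had Nr3c1 at 310, 328, 260 and 280 CPM. The receptor was thus detected in every class. The 4 cardiomyocyte-like intervals were apart, and in fibroblast-like nuclei Rbm20_homo overlapped the corrected library. In WT its highest values were in macrophage-like nuclei at 422 CPM and lymphatic endothelial-like nuclei at 417 CPM, which did not differ beyond their intervals. Its lowest were in cardiomyocyte-like nuclei and in smooth muscle-like nuclei at 146 CPM, whose intervals also overlapped. Rbm20_homo had the lowest Nr3c1 of the 4 libraries in 7 of 8 classes, and in 6 of 8 with Malat1 left out of the total. The interval of none of its 8 ratios to WT lay past 1.5-fold, the lowest being 0.681-fold [0.552 to 0.843] in lymphatic endothelial-like nuclei.

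Nr3c2 encodes the mineralocorticoid receptor, which in cardiomyocytes binds corticosterone as well as aldosterone. The gene is on chromosome 8 at 76899442 to 77245012 (plus strand) and overlaps the counted gene Gm10649 on the opposite strand. In cardiomyocyte-like nuclei it was at 992 CPM [976 to 1007] in WT, 668 for Rbm20_het, 439 [430 to 448] for Rbm20_homo and 718 for the corrected library. WT was highest, Rbm20_homo lowest, and no pair of intervals overlapped. The fall in Rbm20_homo against WT was to 0.443-fold [0.431 to 0.455], or -1.18 (log2) and -0.98 relative to the median gene. The corrected library was 1.64-fold above Rbm20_homo [1.59 to 1.68] and 0.725-fold of WT [0.707 to 0.742]. The first of these 2 ratios is called by CPM, and is not with median-of-ratios scaling, TMM scaling or Malat1 left out.

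The macrophage-like nuclei showed the other large fall of Nr3c2, from 399 CPM in WT to 232 for Rbm20_het, 164 for Rbm20_homo and 204 for the corrected library. Here all 3 mutant libraries, corrected or not, lay below the WT interval of 357 to 444. The corrected library was called lower than WT, at 0.511-fold [0.433 to 0.601], beside 0.412% of all macrophage-like genes called higher and 1.93% lower in that comparison. Fibroblast-like nuclei went from 346 CPM in WT to 294 for Rbm20_het, 196 for Rbm20_homo and 289 with correction. Endocardial-like nuclei went from 435 to 363, 218 and 332 CPM. Nr3c2 fell in Rbm20_homo against WT in these 4 classes. In endothelial-, pericyte-, lymphatic endothelial- and smooth muscle-like nuclei Rbm20_homo was also the lowest library, without passing the call. Lymphatic endothelial-like nuclei had the highest Nr3c2 of the 8 classes in all 4 libraries, at 1236, 1196, 919 and 1297 CPM.

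The fall of Nr3c2 in cardiomyocyte-like nuclei was smaller within a cluster. In cluster 0 Nr3c2 was at 998 CPM in WT, 672 for Rbm20_het, 648 [565 to 741] in the 63 Rbm20_homo nuclei found there and 719 in the corrected library. In cluster 3 it was at 661 [572 to 760] in the 49 WT nuclei, 587 for Rbm20_het, 435 for Rbm20_homo and 717 for the corrected library. Rbm20_homo was the lowest library in both clusters, though its interval overlapped Rbm20_het and the corrected library in cluster 0. Within fibroblast-like cluster 4, Rbm20_homo at 190 CPM [181 to 200] lay below the 283, 298 and 305 of WT, Rbm20_het and the corrected library.

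**Figure D2:**
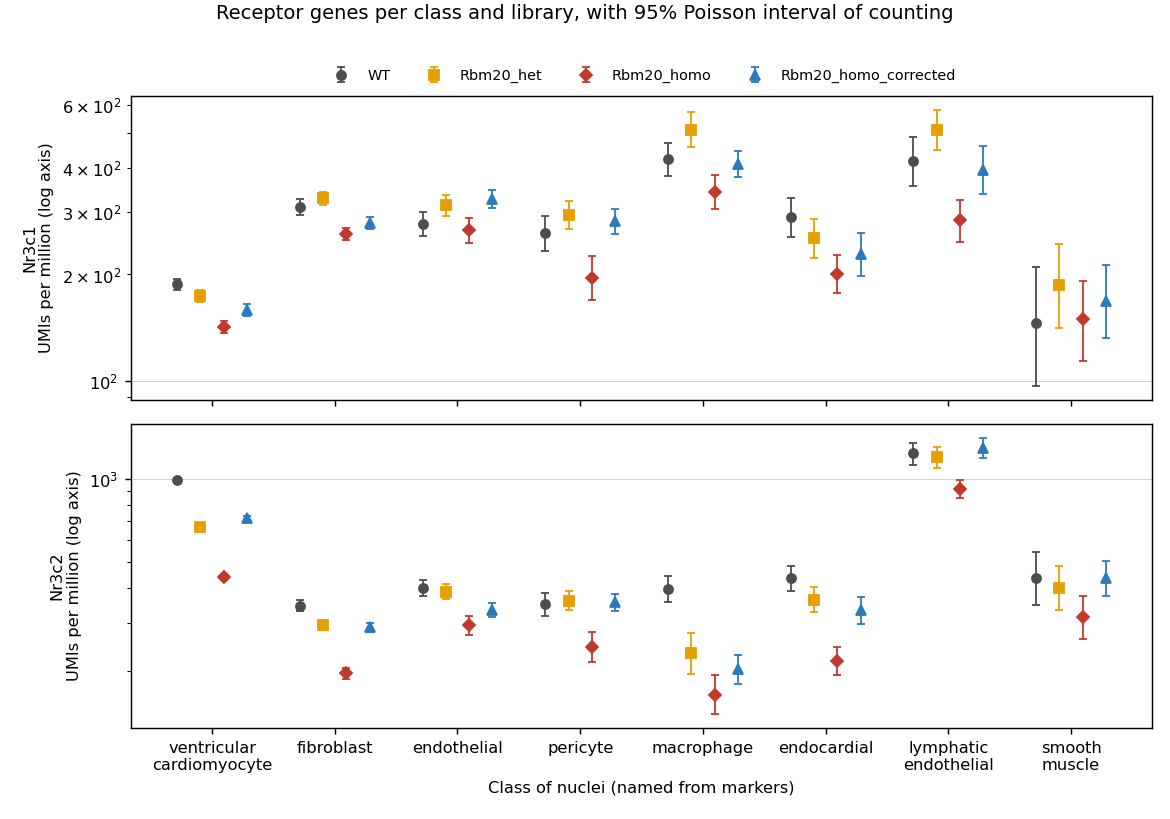
CPM on a log axis of Nr3c1 (top) and Nr3c2 (bottom) in 8 classes of nuclei, 1 point per library with its 95% Poisson interval. Rbm20_homo is the lowest point for Nr3c2 in all 8 classes, and the cardiomyocyte-like points run from 439 to 992.

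Hsd11b1 encodes 11β-hydroxysteroid dehydrogenase type 1, which turns inactive 11-dehydrocorticosterone back into corticosterone within the cell. It lies on chromosome 1 at 193221634 to 193264075 (minus strand), where Lamb3 and 4930570N18Rik overlap it on the other strand. In fibroblast-like nuclei it was at 117 CPM in WT, 174 for Rbm20_het, 65.2 for Rbm20_homo and 117 for the corrected library. Rbm20_het was the highest library and Rbm20_homo the lowest, while WT and the corrected library were level. The Rbm20_homo value was 0.558-fold of WT [0.497 to 0.626], and the corrected library was 1.79-fold above Rbm20_homo [1.62 to 1.98]. For the second comparison 3.91% of all fibroblast-like genes were called higher and 4.46% lower. These sums mix clusters 1 and 4 in unequal parts. Within cluster 1 Hsd11b1 was at 135 CPM in WT, 194 for Rbm20_het, 131 [111 to 154] for Rbm20_homo and 129 for the corrected library. Cluster 4 had 72.5, 54.5, 56.7 and 51.3 CPM in that sequence, with overlapping intervals. So inside clusters 1 and 4 Rbm20_homo did not stand below WT beyond its counting interval. Cluster 4 held only 55 WT nuclei, so a fall there could be missed.

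In endocardial-like nuclei Hsd11b1 was at 28.6 CPM in WT, 50.6 for Rbm20_het, 72.4 for Rbm20_homo and 45.4 for the corrected library. Rbm20_homo was 2.53-fold above WT [1.60 to 4.15], the opposite direction to the fibroblast-like sums. Pericyte-like nuclei had 36.5, 38.6, 73.2 and 27.1 CPM, and there the corrected library fell to 0.371-fold of Rbm20_homo [0.259 to 0.529]. Fibroblast RNA was counted in both classes. The 10 fibroblast markers summed in endocardial-like nuclei to 28.3% (WT), 36.1% (Rbm20_het), 44.8% (Rbm20_homo) and 28.6% (corrected) of their fibroblast-like level. Hsd11b1 there was at 24.5%, 29.1%, 111% and 38.8% of its own fibroblast-like level, so only the Rbm20_homo and corrected libraries exceeded the marker share. Pericyte-like Hsd11b1 was at 31.2%, 22.2%, 112% and 23.2%, beside marker shares of 17.9%, 21.4%, 27.7% and 19.9%, so that Rbm20_het and the corrected library lay near the marker share. In cardiomyocyte-like nuclei Hsd11b1 stood at 2.92 to 5.21 CPM, which was 2.99% to 4.48% of the fibroblast-like level beside a marker share of 2.14% to 4.93%. Values this near the marker share are not read as expression. Among the smaller classes, T cell-like nuclei had Hsd11b1 at 180 CPM in WT, 135 for Rbm20_het, 151 for Rbm20_homo and 229 for the corrected library, from 17 to 48 UMIs each.

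Fkbp5 encodes FKBP51, an HSP90 co-chaperone that lowers the affinity of the glucocorticoid receptor for hormone and is itself strongly induced by it, which makes it a feedback gene. It lies on chromosome 17 at 28399094 to 28517527 (minus strand). Gm22146 on the opposite strand and Gm49838 on the same strand overlap it, and whether reads were counted by strand is not given in the sources used here. In cardiomyocyte-like nuclei Fkbp5 was at 14.4 CPM [12.6 to 16.4] in WT, 75.3 [71.0 to 79.7] for Rbm20_het, 236 [229 to 243] for Rbm20_homo and 28.0 [25.5 to 30.8] for the corrected library. In UMIs this was 229, 1156, 4596 and 437. All 4 intervals were apart. Rbm20_het was 5.23-fold above WT [4.54 to 6.06], the corrected library 1.95-fold above WT [1.66 to 2.30], and the corrected library at 0.119-fold of Rbm20_homo [0.108 to 0.131].

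The other classes held the same order at other levels. Macrophage-like nuclei reached the highest Fkbp5 of any class, at 206 CPM in WT, 509 for Rbm20_het, 1289 for Rbm20_homo and 329 for the corrected library. Fibroblast-like nuclei had the highest level in WT, 300 CPM, and 607, 947 and 517 in the other 3. In endothelial-like nuclei, which line the vessels, the values were 49.5, 156, 529 and 99.6 CPM. Pericyte-like nuclei had 118, 240, 593 and 172 CPM in the same order. Endocardial-like nuclei had 59.6, 252, 591 and 118 CPM. The libraries did not overlap in any of these classes. Lymphatic endothelial-like nuclei had 141, 410, 674 and 331 CPM, where the intervals of Rbm20_het and the corrected library overlapped. Smooth muscle-like nuclei had 41.6, 146, 306 and 77.3 CPM from 8, 43, 123 and 33 UMIs, where the corrected library overlapped both WT and Rbm20_het. The class order also differed between libraries, since macrophage-like nuclei stood below fibroblast-like nuclei in WT and above them in Rbm20_homo. Cardiomyocyte-like nuclei had the lowest Fkbp5 of the 8 classes in all 4 libraries.

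Against WT the rise of Fkbp5 in Rbm20_homo ran from 3.16-fold in fibroblast-like nuclei [2.99 to 3.34] through 10.7-fold in endothelial-like nuclei [8.77 to 13.1] to the 16.4-fold of cardiomyocyte-like nuclei. The class with the highest WT level had the lowest fold. Fkbp5 was called higher in Rbm20_het than in WT in all 8 classes, between 2.03-fold in fibroblast-like and 5.23-fold in cardiomyocyte-like nuclei. Of all genes in that comparison, 0.625% were called higher in fibroblast-like nuclei, 0.678% in endothelial-like, 0.464% in pericyte-like, 0.394% in macrophage-like, 1.23% in endocardial-like, 0.491% in lymphatic endothelial-like and 0.78% in smooth muscle-like nuclei. In the corrected library Fkbp5 was called higher than WT in 4 of 7 classes with enough UMIs, the cardiomyocyte-, fibroblast-, endothelial- and lymphatic endothelial-like nuclei. The shares of all genes called higher there were 1.26% in fibroblast-like, 0.707% in endothelial-like, 0.496% in pericyte-like, 0.48% in endocardial-like, 0.776% in lymphatic endothelial-like and 1.28% in smooth muscle-like nuclei. It was called lower in the corrected library than in Rbm20_homo in all 8 classes. The shares of all genes called lower in that comparison were 2.68% in endothelial-like, 1.45% in pericyte-like, 1.29% in macrophage-like, 1.58% in endocardial-like, 0.738% in lymphatic endothelial-like and 0.808% in smooth muscle-like nuclei.

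**Figure D3:**
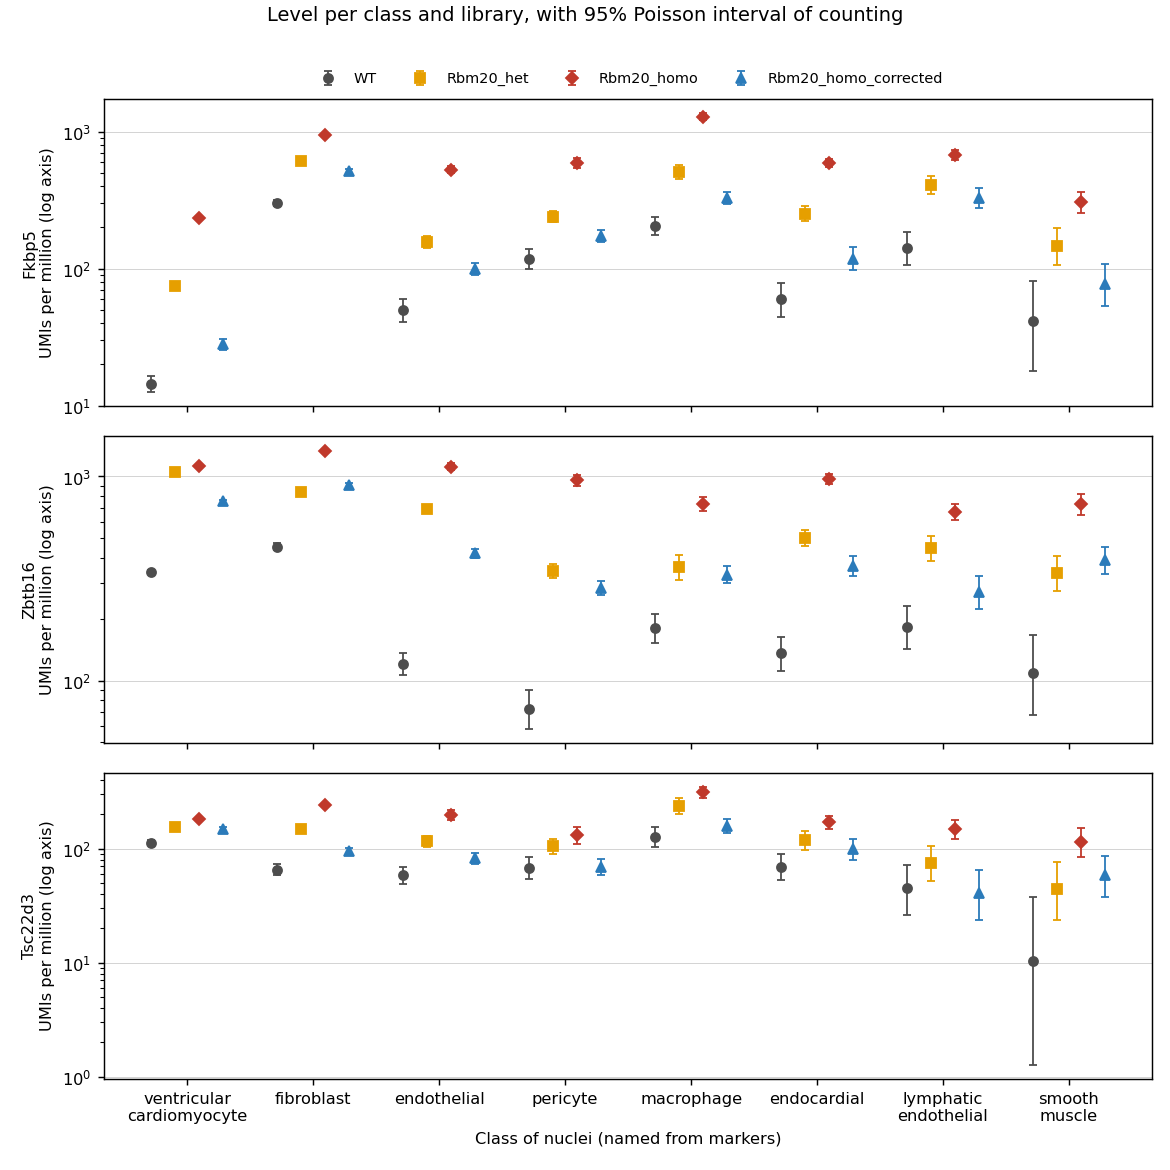
CPM on a log axis of Fkbp5, Zbtb16 and Tsc22d3 (top to bottom) in 8 classes of nuclei, 1 point per library with its 95% Poisson interval. In the top panel the libraries stand in the order WT, corrected, Rbm20_het and Rbm20_homo in every class, and Rbm20_homo is the highest point of every class in all 3 panels.

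The share of nuclei with an Fkbp5 UMI is given next. At equal depth it follows the mean level, so it restates the difference in CPM and is no separate result. With each nucleus thinned to 1000 UMIs, 1.72% of cardiomyocyte-like nuclei had an Fkbp5 UMI in WT, 6.80% for Rbm20_het, 21.4% for Rbm20_homo and 2.56% for the corrected library. Unthinned, the shares were 6.63%, 33.5%, 66.3% and 11.6%. In macrophage-like nuclei, whose median depth was 1712 to 2056 UMIs, the thinned shares were 15.8%, 38.5%, 68.9% and 27.3%. No class lacked Fkbp5, and the thinned share was lowest in cardiomyocyte-like nuclei in 3 libraries and in smooth muscle-like nuclei, at 18.8%, in Rbm20_homo. Fibroblast RNA in cardiomyocyte-like nuclei also moved with genotype. The 10 fibroblast markers, all above 0, summed there to 2.14% of their fibroblast-like level in WT, 2.83% for Rbm20_het, 4.93% for Rbm20_homo and 3.53% for the corrected library. Fkbp5 in cardiomyocyte-like nuclei was at 4.80%, 12.4%, 24.9% and 5.42% of its fibroblast-like level, above the marker share in each library. The margin was narrowest in the corrected library, at 5.42% beside 3.53%. In endocardial-like nuclei it was at 19.9%, 41.5%, 62.4% and 22.9%, below the marker share of 28.3% and 28.6% in WT and the corrected library, and above the 36.1% of Rbm20_het and the 44.8% of Rbm20_homo. Smooth muscle-like Fkbp5 was at 13.9%, 24.1%, 32.3% and 14.9%, beside marker shares of 11.0%, 18.0%, 23.8% and 21.4%, so that the corrected library alone lay below its share. The part of stray fibroblast RNA in the Fkbp5 levels of cardiomyocyte-, endocardial- and smooth muscle-like nuclei was not tested. This holds too for the called cardiomyocyte-like ratio of the corrected library to WT.

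**Figure D4:**
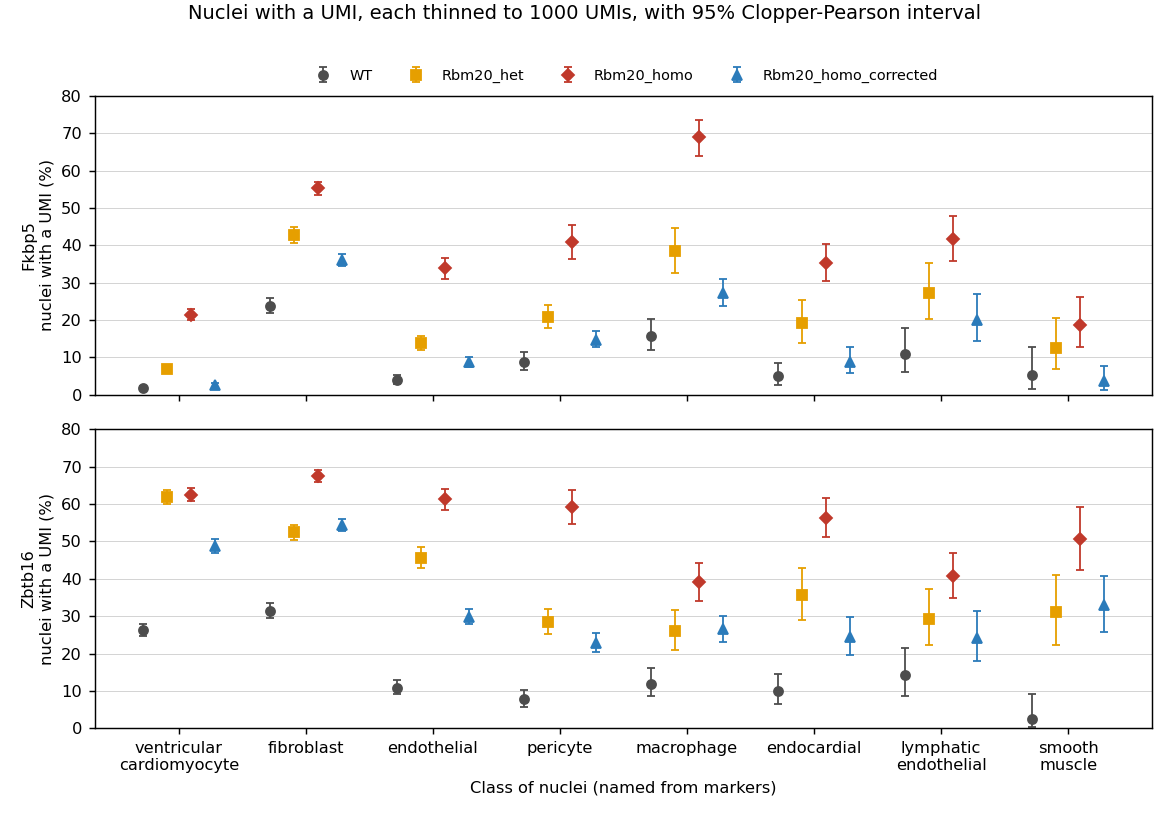
Percent of nuclei with at least 1 UMI of Fkbp5 (top) or Zbtb16 (bottom) after thinning each nucleus to 1000 UMIs, by class and library, with 95% Clopper-Pearson intervals. Rbm20_homo is the highest point in each class, from 18.8% in smooth muscle-like to 68.9% in macrophage-like nuclei for Fkbp5.

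Because genotypes filled different clusters, Fkbp5 was also read within clusters. In cardiomyocyte-like cluster 0 it was at 14.4 CPM in WT, 76.1 for Rbm20_het, 297 [241 to 362] in the 63 nuclei of Rbm20_homo and 27.9 in the corrected library. In cluster 3 it was at 13.4 [3.66 to 34.4], 60.5, 235 and 29.97 CPM. The order of the 4 libraries was the same in both clusters, with WT and the corrected library overlapping in cluster 3. The wide WT interval in cluster 3 leaves the size of the differences from WT there uncertain. In fibroblast-like cluster 1 Fkbp5 was at 325, 622, 1164 and 538 CPM, and in cluster 4 at 171, 479, 918 and 434 CPM.

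**Figure D5:**
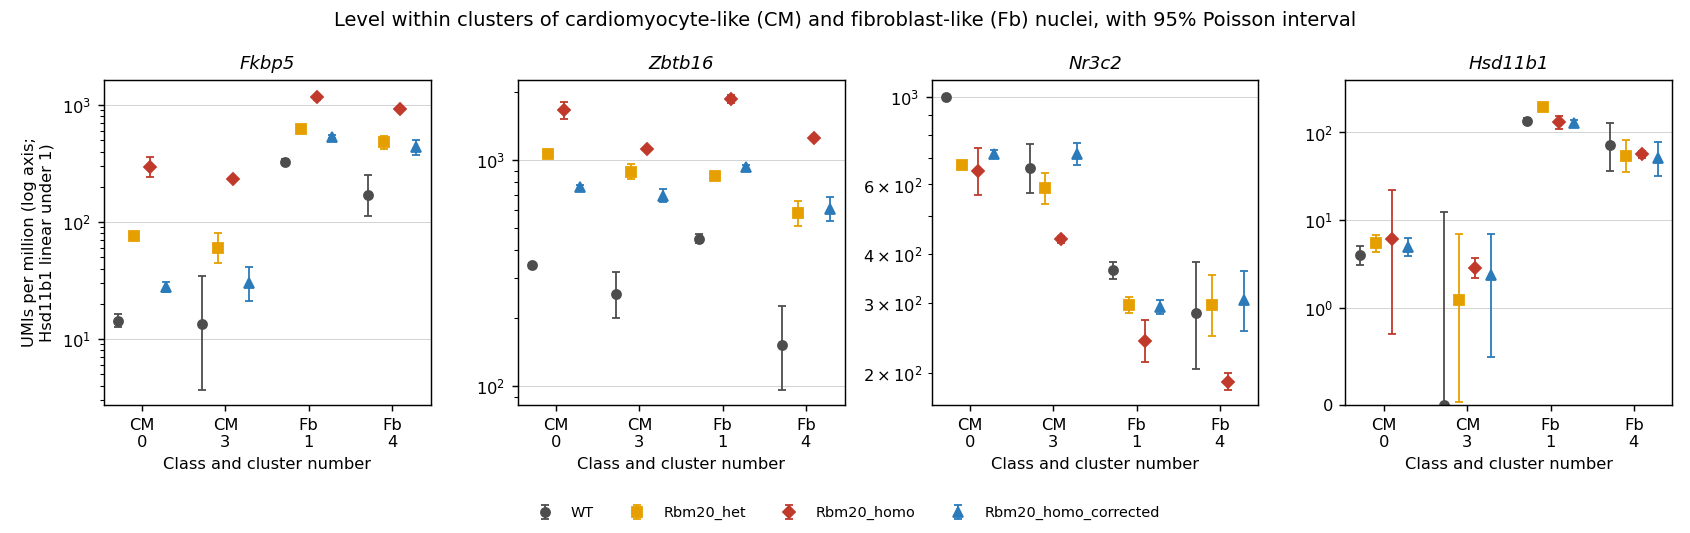
CPM with 95% Poisson intervals of Fkbp5, Zbtb16, Nr3c2 and Hsd11b1 within cardiomyocyte-like (CM) clusters 0 and 3 and fibroblast-like (Fb) clusters 1 and 4, 1 point per library. Axes are logarithmic, and linear under 1 for Hsd11b1. Fkbp5 and Zbtb16 are highest in Rbm20_homo in all 4 clusters, while Hsd11b1 in cluster 1 is level between WT at 135 and Rbm20_homo at 131.

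Glucocorticoid receptor dimers bind a palindrome of AGAACA half-sites, and the stretch before the start of each member was searched for it. RefSeq promoters (GRCm38.p6, 250 bases before to 50 after a start) were found for 8 of the 10 genes, with 16 starts among them, and not for Nr3c1 and Zbtb16. Searched on both strands, the full palindrome (AGAACA, any 3 bases, TGTTCT) stood in 1 of the 16, a start of Sgk1, as did the relaxed form (GNACA, any 3 bases, TGTNC), which every full palindrome also matches. The half-site AGAACA stood in 4 of 16, including the palindrome, 3 of them starts of Sgk1 and 1 of Tsc22d3. Of 32851 mouse promoters of the same length, 0.00913% held the full palindrome, 0.475% the relaxed form and 18.97% the half-site. The stretches below are 5′ to 3′ on the gene's strand and stop before the first exon base, with the longest motif found in capitals. They show Fkbp5, which moved most and has none of the 3 motifs in this window, Tsc22d3 with a half-site, and Sgk1 with the palindrome, 189 bases before the start.
Fkbp5, chr17:28486150-28486399, minus strand, in an intron of the longest gene model: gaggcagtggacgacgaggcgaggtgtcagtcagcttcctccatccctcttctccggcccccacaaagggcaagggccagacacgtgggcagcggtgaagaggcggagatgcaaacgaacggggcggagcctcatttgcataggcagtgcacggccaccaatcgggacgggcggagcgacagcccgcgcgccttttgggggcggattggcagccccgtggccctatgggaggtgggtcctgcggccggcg
Tsc22d3, chrX:140600660-140600772, minus strand, before the gene: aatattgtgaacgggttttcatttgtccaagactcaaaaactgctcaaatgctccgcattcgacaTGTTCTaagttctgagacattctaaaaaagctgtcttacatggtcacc
Sgk1, chr10:21993640-21993889, plus strand, in an intron of the longest gene model: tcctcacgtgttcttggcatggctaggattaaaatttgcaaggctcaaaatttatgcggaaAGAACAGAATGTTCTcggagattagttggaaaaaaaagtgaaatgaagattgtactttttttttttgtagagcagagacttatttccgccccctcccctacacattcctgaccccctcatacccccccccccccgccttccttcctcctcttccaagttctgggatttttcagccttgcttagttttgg
A match is a description of these letters, and a window without one says nothing about the receptor elsewhere in the gene.

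Zbtb16 encodes PLZF, a zinc finger transcription factor that glucocorticoids induce in many cell types. Its place is chromosome 9 at 48654297 to 48836222 (minus strand) with no overlapping counted gene. In cardiomyocyte-like nuclei Zbtb16 was at 341 CPM [332 to 350] in WT, 1058 [1042 to 1074] for Rbm20_het, 1128 [1113 to 1143] for Rbm20_homo and 757 [743 to 771] for the corrected library. Unlike Fkbp5, it was by CPM of the whole class almost as high in Rbm20_het as in Rbm20_homo. Within either cardiomyocyte-like cluster, given below, Rbm20_homo stood further above Rbm20_het. The ratio to WT was 3.10-fold in Rbm20_het [3.01 to 3.20], 3.31-fold in Rbm20_homo and 2.22-fold in the corrected library [2.15 to 2.29]. The corrected library was at 0.671-fold of Rbm20_homo [0.656 to 0.686], not past the call by CPM and called lower with median-of-ratios scaling.

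In the vessel wall the contrast with WT was wider. Pericyte-like nuclei had Zbtb16 at 72.9 CPM in WT, 345 for Rbm20_het, 957 for Rbm20_homo and 286 for the corrected library. This was a rise of 13.1-fold in Rbm20_homo [10.5 to 16.6]. Pericyte-like Zbtb16 was at 16.1%, 40.9%, 72.1% and 31.5% of its fibroblast-like level, beside fibroblast marker shares of 17.9%, 21.4%, 27.7% and 19.9%. The WT level was thus no higher than the marker share, and the part of stray fibroblast RNA in it was not tested. Endothelial-like nuclei had 121, 694, 1116 and 421 CPM, a 9.26-fold rise in Rbm20_homo [8.15 to 10.5]. Endocardial-like nuclei had 136, 501, 970 and 365 CPM, and smooth muscle-like nuclei 109, 337, 729 and 389. Fibroblast-like nuclei had 453, 843, 1327 and 908 CPM, so here the corrected library stood above Rbm20_het. Macrophage-like nuclei had 180, 359, 735 and 330 CPM, and lymphatic endothelial-like nuclei 183, 444, 670 and 271. Zbtb16 was called higher than WT in 8 of 8 classes in Rbm20_homo, 8 of 8 in Rbm20_het and 7 of 8 in the corrected library, all but the lymphatic endothelial-like nuclei. Against Rbm20_homo the corrected library was lower by the call in 6 of 8, all but cardiomyocyte- and fibroblast-like nuclei.

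After thinning to 1000 UMIs, 26.3% of cardiomyocyte-like nuclei had a Zbtb16 UMI in WT, 61.9% for Rbm20_het, 62.5% for Rbm20_homo and 48.8% for the corrected library, and unthinned 2008 of 2910 WT nuclei had one, beside 97.2%, 96.7% and 87.8% in the other 3 libraries. Both Fkbp5 and Zbtb16 were seen in 0.482%, 4.58%, 14.3% and 1.47% of the thinned nuclei in that order. Nuclei with Zbtb16 carried Fkbp5 in 23.0% of cases in Rbm20_homo and nuclei without it in 18.9%. In WT these shares were 1.83% and 1.68%. Within cluster 0 Zbtb16 was at 343 CPM in WT, 1067 for Rbm20_het, 1664 for Rbm20_homo and 762 with correction, and within cluster 3 at 255, 889, 1119 and 697. Rbm20_homo was thus highest inside either cluster.

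Tsc22d3 encodes GILZ, a leucine zipper protein that carries part of the anti-inflammatory action of glucocorticoids. The gene is on chromosome X at 140539528 to 140600659 (minus strand). In fibroblast-like nuclei it was at 65.2 CPM [58.3 to 72.7] in WT, 148 for Rbm20_het, 241 [231 to 251.03] for Rbm20_homo and 94.5 for the corrected library, with no overlap. This was a 3.69-fold rise in Rbm20_homo against WT [3.28 to 4.16] and a 2.27-fold rise in Rbm20_het [1.998 to 2.58]. Cardiomyocyte-like nuclei had 112, 156, 182 and 148 CPM, a narrower range in which Rbm20_het and the corrected library overlapped. Endothelial-like nuclei had 58.2, 116, 197 and 82.2 CPM, and macrophage-like nuclei, the class with the highest level, 126, 237, 311 and 158. Rbm20_homo was the highest library in all 8 classes. Tsc22d3 was called higher than WT there in 6 of the 7 classes with enough UMIs. Pericyte-like nuclei, at 67.7 CPM in WT and 130 in Rbm20_homo, did not pass. Smooth muscle-like nuclei had only 2 UMIs in WT and 46 in Rbm20_homo. In the corrected library Tsc22d3 was called higher than WT in 0 of the 6 classes with enough UMIs, and lower than Rbm20_homo in 4 of 8: fibroblast-, endothelial-, macrophage- and lymphatic endothelial-like nuclei.

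Errfi1 encodes MIG6, a feedback inhibitor of the EGF receptor family that growth factors as well as glucocorticoids induce. Its place is chromosome 4 at 150853919 to 150868892 (plus strand), overlapped by 1700045H11Rik on the opposite strand. Its highest levels were in the mural cells around vessels. Pericyte-like nuclei had 344 CPM in WT, 320 for Rbm20_het, 852 for Rbm20_homo and 503 for the corrected library. Smooth muscle-like nuclei had 208, 228, 684 and 391 CPM. In both classes WT and Rbm20_het overlapped, the corrected library lay above them and Rbm20_homo above all. Fibroblast-like nuclei had 112, 180, 276 and 151 CPM, all apart. Errfi1 was the highest in Rbm20_homo in all 8 classes and was called higher than WT in 6, from 2.13-fold in lymphatic endothelial-like nuclei [1.56 to 2.95] to 3.29-fold in smooth muscle-like nuclei [2.36 to 4.71]. In Rbm20_het and in the corrected library it was called against WT in 0 of 7 and 0 of 8 classes. Cardiomyocyte-like nuclei held 7.16, 7.81, 13.1 and 7.57 CPM. There Errfi1 was at 4.76% of its fibroblast-like level in Rbm20_homo, no more than the marker share of 4.93%, and at 6.37% in WT beside 2.14%. In endothelial-like nuclei, a called class, Errfi1 was at 18.4%, 14.9%, 19.6% and 22.3% of its fibroblast-like level beside marker shares of 7.28%, 10.8%, 21.3% and 11.4%. In endocardial-like nuclei it was at 27.1% in Rbm20_homo beside 44.8%. The part of stray fibroblast RNA in the Errfi1 levels of these classes was not tested.

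Hif3a encodes a member of the hypoxia-inducible factor family that lacks part of the activating domain and that glucocorticoids raise in several tissues. It lies on chromosome 7 at 17031507 to 17062427 (minus strand) and its counts were low. Endothelial-like nuclei had 1.83 CPM in WT from 4 UMIs, 12.5 in Rbm20_het from 32, 22.2 in Rbm20_homo from 50 and 3.81 in the corrected library from 14. Rbm20_homo was 12.1-fold above WT [4.43 to 46.0] and the corrected library at 0.172-fold of Rbm20_homo [0.0879 to 0.316]. Endocardial-like nuclei had 20.3, 39.5, 59.3 and 22.1 CPM, where each library overlapped the next in rising order and Rbm20_homo was 2.93-fold above WT [1.72 to 5.29]. Pericyte-like nuclei had 7.81, 18.4, 37.1 and 8.14 CPM, with 46 UMIs in WT and Rbm20_homo together, too few to call. Lymphatic endothelial-like nuclei had 0 UMIs in WT, which allows up to 7.98 CPM, and 17 UMIs or 22.9 CPM in Rbm20_homo. In cardiomyocyte-like nuclei the pattern was another one. There Hif3a was at 8.35 CPM in WT, 15.95 for Rbm20_het, 8.72 for Rbm20_homo and 7.77 for the corrected library, so that Rbm20_het alone stood apart, 1.91-fold above WT [1.54 to 2.38].

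Klf9 encodes a zinc finger repressor with well-known receptor sites near its gene, and lies on chromosome 19 at 23141226 to 23168134 (plus strand). Its values went in different directions by class. In cardiomyocyte-like nuclei Klf9 was at 132 CPM in WT, 149 for Rbm20_het, 101 for Rbm20_homo and 134 for the corrected library. Fibroblast-like nuclei had 368, 349, 267 and 322 CPM. In both classes Rbm20_homo was the lowest library. In endothelial-like nuclei it was the highest, at 329 CPM beside 210 in WT, 286 for Rbm20_het and 224 for the corrected library. Macrophage-like nuclei had 83.5, 150, 160 and 91.2 CPM. Klf9 was called in 0 of 8 classes in each of the 4 comparisons, the largest ratio of Rbm20_homo to WT being 1.91-fold [1.43 to 2.58] in macrophage-like nuclei.

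Sgk1 encodes a serine/threonine kinase that both corticosteroid receptors induce, and lies on chromosome 10 at 21882184 to 21999903 (plus strand). It is the member with the palindrome printed above. Endothelial-like nuclei had the highest Sgk1, at 91.3 CPM in WT, 98.0 for Rbm20_het, 125 for Rbm20_homo and 108 for the corrected library. Neighbours in that order overlapped. Endocardial-like nuclei had 31.0, 51.6, 53.2 and 34.3 CPM, and lymphatic endothelial-like nuclei 18.6, 36.4, 62.0 and 45.2. Cardiomyocyte-like nuclei had only 2.54 to 3.64 CPM in the 4 libraries, from 39 to 58 UMIs. Sgk1 was called in 0 of the 5 classes with enough UMIs for Rbm20_homo against WT and in 0 classes of the other 3 comparisons. In endothelial-like nuclei the ratio of Rbm20_homo to WT was 1.36-fold [1.13 to 1.64].

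Other genes that glucocorticoids induce did not move as one. Of 35 such genes on a separate list, 32 were measured in cardiomyocyte-like nuclei. Of these, 7 rose in Rbm20_homo against WT, among them Cebpd, Ddit4, Lpin1, Glul, Tgm2 and Cdkn1a, and 4 fell (Angptl4, Rgs2, Txnip and Fbxo32). Their median log2 ratio was -0.01, beside -0.19 over all genes, of which 6.64% were called higher and 11.5% lower. With median-of-ratios scaling the list's median turned to 0.20, with 9 higher and 3 lower, beside 9.46% and 7.47% of all genes. Ddit4, an inhibitor of mTORC1, was at 3.01 CPM in WT, 5.14 for Rbm20_het, 14.1 for Rbm20_homo and 8.73 for the corrected library. Cebpd, a transcription factor of the acute response, was at 4.46, 7.62, 17.7 and 4.24 CPM. Tgm2, a transglutaminase, was at 20.6, 33.1, 67.7 and 36.4 CPM. In these 3 genes Rbm20_homo was the highest library. The part of stray RNA from other classes in their cardiomyocyte-like levels was not tested. Angptl4, an inhibitor of lipoprotein lipase and a classical glucocorticoid target, went the other way, with 5.84, 4.23, 1.13 and 5.33 CPM. Rgs2, a brake on G protein signalling, was at 28.3, 17.6, 7.38 and 12.1 CPM.

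The same list in other classes gave 5 higher and 1 lower of 32 in fibroblast-like nuclei, with a median of 0.40 (log2). Of all fibroblast-like genes, 5.46% were called higher and 3.78% lower, and those with at least 500 UMIs had a median of 0.03. In endothelial-like nuclei the list gave 7 higher and 0 lower of 29, with a median of 0.51. All endothelial-like genes had 3.17% called higher and 1.96% lower, and a median of -0.03 from 500 UMIs up. Ddit4 was among the higher listed genes of both classes. In endothelial-like nuclei Ddit4 was at 40.4 CPM in WT, 58.0 for Rbm20_het, 114 for Rbm20_homo and 25.9 for the corrected library, and Fam107a, an actin-binding protein, at 5.50, 14.4, 44.7 and 4.90. Pericyte-like nuclei had 3 of 16 higher, endocardial-like 3 of 21, lymphatic endothelial-like 2 of 17, macrophage-like 1 of 18 (Lyz2) and smooth muscle-like 1 of 6, with 0 lower in each. In these classes, in that order, 1.84%, 2.49%, 1.38%, 2.01% and 1.65% of all genes were called higher. In cardiomyocyte-like nuclei of the corrected library, 3 of 31 were higher than WT, Ddit4 and Tgm2 among them, and 4 lower, beside 2.08% and 2.62% of all genes. Of 32 against Rbm20_homo, 3 were higher and 6 lower, beside 7.25% and 4.77%. Rbm20_het had 2 of 31 higher than WT, Klf15 among them, and 0 lower, beside 1.83% and 1.8%.

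The counts that follow stand beside 6.64% of all cardiomyocyte-like genes called higher and 11.5% lower, and nothing particular to these short lists is read from them. Of 19 chaperones and coregulators in cardiomyocyte-like nuclei, Fkbp4 alone was called in Rbm20_homo against WT, at 35.3 CPM in WT, 25.1 for Rbm20_het, 19.2 for Rbm20_homo and 29.5 for the corrected library. Fkbp4 encodes FKBP52, another HSP90 co-chaperone of the receptor complex. With median-of-ratios scaling Fkbp4 lost the call and Hsp90aa1, at 16.5, 15.4, 25.7 and 16.04 CPM, gained one on the higher side. The list's median log2 ratio was 0.03. Of 5 measured genes of steroid supply, 1 fell, Abcb1b, a drug and steroid exporter at 16.8, 6.84, 3.95 and 2.50 CPM. Of 6 measured mineralocorticoid response genes, 1 rose, Pla2g4a, at 1.70, 2.60, 4.66 and 2.25 CPM. Of 11 inflammatory genes that glucocorticoids repress, 2 were measured. The chemokine Cxcl12 was higher and not lower, at 5.46, 11.3, 57.3 and 10.3 CPM, a 10.5-fold rise [8.43 to 13.2]. The part of stray RNA from other classes in the Cxcl12 level was not tested. Of 9 genes of the hypoxia pathway, to which Hif3a belongs, 1 rose (Slc2a1) and 3 fell (Vegfa, Epas1, Egln1), with a median of 0.02. Vegfa was at 760, 519, 315 and 426 CPM. Of 6 measured genes of the EGF receptor family, whose signal Errfi1 limits, the ligand Hbegf rose, at 11.2, 11.2, 29.6 and 13.03 CPM, and the receptor Erbb4 fell, at 1207, 1176, 748 and 1392. The Erbb4 call was lost with median-of-ratios scaling.

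Genes of the circadian clock, which sets the daily corticosterone rhythm and answers to it, also differed between the libraries. By CPM, 11.5% of all genes fell and 6.64% rose in Rbm20_homo against WT, with a median log2 ratio of -0.19. In cardiomyocyte-like nuclei 8 of 14 fell in Rbm20_homo against WT and 0 rose, with a median log2 ratio of -0.83 that stayed at -0.63 with median-of-ratios scaling, where 7 fell. In the corrected library against WT 9 fell and 2 rose, with a median of -0.98. Over all genes there, 2.62% fell and 2.08% rose, with a median of -0.06. In Rbm20_het 1 fell and 1 rose, with a median of -0.04, beside 1.8% and 1.83% of all genes and a median of -0.06. Dbp, an output gene of the clock, was at 138 CPM in WT, 72.9 for Rbm20_het, 21.4 for Rbm20_homo and 33.7 for the corrected library. Ciart, a clock repressor, was at 32.4, 41.9, 15.7 and 3.40 CPM. The following pair was picked after its values were seen. Arntl, which encodes the activator BMAL1, was at 3.01, 2.47, 2.51 and 30.4 CPM, and Per2, a repressor that glucocorticoids also induce, at 51.4, 64.5, 64.2 and 15.5 CPM. The corrected library stood apart from the other 3 in both. It was also highest for Arntl and lowest for Per2 in endothelial-like nuclei, where Arntl was at 6.42, 3.89, 21.3 and 65.1 CPM and Per2 at 72.9, 114, 134 and 21.0. Of 7 measured immediate-early genes, which respond to tissue handling, 5 rose in Rbm20_homo against WT in cardiomyocyte-like nuclei, and the same 5 were lower in the corrected library than in Rbm20_homo. Over all genes, 6.64% rose in the first comparison and 4.77% were lower in the second. Jun was at 31.0, 26.4, 63.2 and 20.3 CPM, and Btg2 at 11.7, 15.1, 35.2 and 15.3. The part of clock phase or of handling in the levels of Fkbp5, Zbtb16, Tsc22d3 and Nr3c2 was not tested, and with 1 library per genotype they cannot be told apart from the genotype.

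The pattern of Fkbp5 extended to classes too small to be compared in full. In T cell-like nuclei Fkbp5 was at 74.2 CPM in WT, 321 for Rbm20_het, 720 for Rbm20_homo and 291 for the corrected library, from 7, 57, 129 and 61 UMIs. Schwann-like nuclei had 135, 293, 536 and 188 CPM, and mesothelial-like nuclei 192, 376, 1021 and 318. B cell-like nuclei had 204, 130, 490 and 132 CPM, so that WT was not the lowest there, though its interval of 129 to 305 overlapped Rbm20_het and the corrected library. Nuclei in clusters left unnamed had Fkbp5 at 157, 371, 824 and 288 CPM and Zbtb16 at 260, 678, 1129 and 580. Rbm20_homo was the highest library in each of these groups.

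The 2 added features named ABE_C and ABE_N had UMIs only in the corrected library, in 1522 of 13144 nuclei. Among its cardiomyocyte-like nuclei, Fkbp5 was at 25.4 CPM [21.9 to 29.3] in the 1208 with such a UMI and 30.3 [26.7 to 34.3] in the 1853 without, whose median depths were 5302 and 4015 UMIs. Zbtb16 was at 777 and 739 CPM, Nr3c2 at 699 and 736, and Tsc22d3 at 127 [119 to 136] and 165 [157 to 174]. Of these 4 genes, Tsc22d3 was the only one whose intervals did not overlap, and those of Zbtb16 and Nr3c2 overlapped narrowly.

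The genes most like Fkbp5 over 28 sums (7 classes by 4 libraries, log2(CPM + 1)) were sought among 12141 genes, as a description in which all points share libraries and depth. The highest Pearson r was 0.87, for Gm22146, E230001N04Rik and Far1os, followed by 0.83 for Gm20275, 0.82 for Dpy19l1 and 0.80 for Orc1. The first 2 are neighbours of Fkbp5. Gm22146 lies inside it on the opposite strand, at 28446500 to 28456457, where reads of either gene cannot be told apart without strand. E230001N04Rik lies 5193 bases from Fkbp5. In macrophage-like nuclei Gm22146 was at 5.97 CPM in WT, 11.7 for Rbm20_het, 62.4 for Rbm20_homo and 4.52 for the corrected library, and E230001N04Rik at 4.77, 33.4, 63.4 and 10.5. The genes most like Zbtb16 were Myl1 with r of 0.76, Gm45510 with 0.73 and Chac2 with 0.72, and then Nppa, Tmed2 and Zbtb38 with 0.71. Tsc22d3 ranked 17 for Zbtb16 with 0.66. Nppa, on the list of atrial cardiomyocyte markers, was at 10.3, 28.8, 891 and 32.2 CPM in cardiomyocyte-like nuclei. In endothelial-like nuclei it was at 6.88, 28.4, 1137 and 37.0, and in macrophage-like nuclei at 11.9, 23.4, 773 and 27.9. The part of stray cardiomyocyte RNA in the Zbtb16 and Nr3c2 levels of the other classes was not tested. The genes most like Nr3c1 were Ubtd1, Tcf20 and Nsmce2 with r of 0.90 and Washc5, Sirt7 and Zfyve26 with 0.89.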

How the data were processed

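Single-nucleus RNA was measured in 4 heart libraries, 1 per genotype. The authors deposited unnormalised UMI counts (whole numbers) for each gene in each barcode. Cell Ranger 6.1.1, Seurat 4 and mm10 are named in the submitters' processing notes, and Cell Ranger 4.0.0 per the file headers. Whether introns were counted, or strand used, is not given in the sources used here.

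Barcodes under 300 genes or over 5% mitochondrial UMIs were dropped. The nuclei with the highest Scrublet scores, 0.8% per 1000 barcodes, were removed as doublets: 713 (WT), 749 (Rbm20_het), 1069 (Rbm20_homo) and 1813 (corrected). The automatic Scrublet cutoff, which would have marked 0, 0, 1 and 2991, was set aside. This left 8681, 8871, 10443 and 13144 nuclei with median depths of 2855, 3020, 3146 and 2364 UMIs. Log counts per 10000 were used, and 2000 variable genes, 30 components and 20 neighbours fed Leiden clustering at resolution 0.8 (scanpy 1.11.5, leidenalg 0.10.2). No batch integration was used. Clusters took a "like" name from marker lists, with thresholds set after the data were seen, and 1008, 1065, 1183 and 1351 nuclei stayed unnamed.

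UMIs were summed per class and library. Sums have exact Poisson intervals, ratios exact conditional binomial intervals and shares Clopper-Pearson intervals, all at 95%. For a count of 0 the limit is 3 counts in that library. The scripts were tested on simulated data. Alternatives were median-of-ratios and TMM scaling (edgeR 4.0.16), Malat1 left out, nuclei thinned to 1000 UMIs, no doublet removal, resolution 0.4, at least 1000 genes, no UMI minimum and a 2-fold limit.

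The text names all 10 members, counts for 9 other gene lists, up to 6 genes per list by the size of the Rbm20_homo to WT ratio in cardiomyocyte-like nuclei, and the 6 genes most like Fkbp5, Zbtb16 and Nr3c1. Other named genes of the lists were called genes or were picked after their values were seen. The members and lists were chosen with earlier results of these data known. Some results of one list are not reported here.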

Additional observations from a re-analysis of the deposited data

Results flagged for a closer look

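Hsd11b1 went in opposite directions in different classes under the same comparison. Between Rbm20_homo and WT its log2 ratio of CPM was 1.34 in endocardial-like nuclei and -0.84 in fibroblast-like nuclei, a difference of 2.18. Between the corrected library and Rbm20_homo it was 0.84 in fibroblast-like nuclei and -1.43 in pericyte-like nuclei, a difference of 2.27. Each class has 1 library per genotype, so the difference between classes was not tested. Within fibroblast-like clusters 1 and 4 the WT and Rbm20_homo intervals of Hsd11b1 overlapped.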

How the results depend on the processing

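The single-gene check covered 40 log2 ratios of the 10 members, all in cardiomyocyte-like nuclei, and not the ratios of the other classes. None of those past the call changed sign under 7 alternatives, while 12 values of ratios not past it did. Among these 12, Sgk1 went from -0.40 to 1.58 (Rbm20_homo to WT) and from -0.52 to 1.87 (Rbm20_het to WT) after thinning. In all, 222 of 280 values stayed within the counting interval and 58 moved outside it, most of them under another scaling or thinning. Counts of members called kept within 1.5 times the reported count in 127 of 144 values. The 17 that did not, with cause not tested, were these. In cardiomyocyte-like nuclei, the members higher in the corrected library than in WT (2) became 1 after thinning to 1000 UMIs and 1 at the 2-fold limit. Those higher in the corrected library than in Rbm20_homo (1, Nr3c2) became 0 with median-of-ratios scaling, 0 with TMM, 0 with Malat1 left out, 0 at the 2-fold limit and 2 with no doublet removal. Those lower (1, Fkbp5) became 3 with median-of-ratios scaling, 2 with TMM, 3 with Malat1 left out and 2 with no doublet removal. For Rbm20_homo against WT, the 2 lower members in fibroblast-like nuclei became 1 after thinning and 0 at the 2-fold limit, and the 5 higher in endothelial-like nuclei became 3 after thinning. The 4 higher in macrophage-like nuclei became 2 at the 2-fold limit, and the 1 lower became 0 at the 2-fold limit and 0 with at least 1000 genes per nucleus. No paired analysis was possible because each genotype has 1 library and the labels carry no replicate numbers, and for the same reason no replicate could be left out. Depth limits Sgk1 in cardiomyocyte-like nuclei and Hif3a, Hsd11b1 and Sgk1 in the smaller classes, where under 50 UMIs were counted in a pair of libraries.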
